A study of Mus musculus with 9 samples.

Results

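The genes described here are 39 genes of the endoplasmic reticulum (ER) folding and secretion pathway, measured by RNA-seq in 3 subsets of mouse splenic B cells. They were chosen by name, and a row was found for 39 of 39 names among the 24459 rows of the expression table. By role they comprise 16 chaperones and folding enzymes, 7 subunits of the translocon, 3 subunits of the signal peptidase, 8 genes of ER-associated degradation and 5 stress sensors and transcription factors. The level of each gene is given as FPKM, a fragment count divided by transcript length and by the mapped fragments of the library, so that levels of different genes are compared per length.

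Proteins destined for the membrane or for secretion enter the ER through the Sec61 translocon, lose their signal peptide to the signal peptidase, and are folded by chaperones and by protein disulfide isomerases that form and rearrange disulfide bonds. Proteins that fail to fold are returned to the cytosol and degraded. The sensors encoded by Ern1, Eif2ak3 and Atf6 respond to unfolded protein by changing transcription and translation, and in the B lineage the pathway is best known for its expansion in plasma cells.

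The study compared a regulatory B cell subset with low IgD, called BDL, to follicular (FO) and marginal zone (MZ) B cells. BDL and FO B cells were both sorted as B220+IgM int CD21 int CD23+CD93- cells and differed in the IgD gate, low for BDL and high for FO, while MZ B cells were sorted as B220+IgM hi CD21 hi CD23-CD93- cells. All cells came from untreated mice of 8 to 10 weeks with no transgene or deletion named for these libraries, and each library was made from 1 sort of B cells pooled from 5 mice. Each subset has 3 libraries, and those that share a replicate number carry the same number in their labels. That number reads as a date and is called the date below, but the labels do not say what was done on it. The sample labels give the strain as C57/BL6 and the study's text names B10.PL, and the labels describe single-end reads without strand whereas the study's methods name a stranded kit and 2 read files per sample. The p-values below set a difference between subset means against the spread between libraries of a subset, estimated over all subsets together. Libraries of the same date were not paired unless stated.

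Read counts were not analysed here, and the step size of low FPKM values was used to estimate depth. A single fragment per kb of transcript was worth 0.0138 to 0.0187 FPKM, which puts the 9 libraries at 0.897 to 1.21 of the depth of FO replicate 1. The lowest value of any of the 39 genes, that of Derl3 in an FO library, stood for approximately 85 fragments. The MZ labels held against 2 genes of the sort gates. Cr2, which encodes CD21, was between 400 and 505 FPKM in the MZ libraries and at most 150 FPKM in the others. Fcer2a, which encodes CD23, was between 26.0 and 34.5 FPKM in MZ and at least 389 FPKM in BDL and FO. Of 6 MZ markers read, 5 were higher in MZ over FO and Notch2 was not (means of 56.3 and 61.4 FPKM). These genes set MZ apart and do not check the labels of BDL against FO. The third replicate stood apart for the 39 genes. Of the 39, 28 (71.8%) had their highest BDL value and 32 (82.1%) their highest MZ value in replicate 3, compared with 45.1% and 55.9% of all tested genes, and 19 did so in FO (48.7%, compared with 37.9%). Calls that changed without replicate 3 in every subset are given beside the genes. In bulk RNA, fewer cells of a type and less RNA per cell cannot be told apart.

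Genes were tested with limma on log2(FPKM + 0.1), and a gene passed the test at an adjusted p under 0.05 among the 11597 genes with a mean of at least 0.5 FPKM, which include all 39. All fold changes below are log2 fold changes on this scale. In MZ over FO B cells, 12 of the 39 genes were higher (30.8%, compared with 14.3% of all genes tested) and 1 was lower (2.56%, compared with 12.8%). Of the 12, 5 had a fold of 2 or more (12.8%, compared with 5.54% of all genes), while 0 were lower by as much (compared with 3.39%). In BDL over FO B cells, 5 genes were higher (12.8%, compared with 6.04%) and 0 were lower (compared with 1.68%), and Derl3 alone was higher by a fold of 2 or more (compared with 1.64%), with 0 lower (compared with 0.267%). In BDL over MZ B cells, 2 genes were higher (5.13%, compared with 16.5%) and 9 were lower (23.1%, compared with 11.6%), 3 of them by a fold of 2 or more (compared with 4.34%), while 0 were higher by as much (compared with 3.47%). The comparisons with FO B cells share the 3 FO libraries, and 3 genes, Pdia4, Derl3 and Ern1, were higher in both. BDL over MZ in turn shares its MZ and its BDL libraries with these comparisons.

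Most of the 39 genes did not pass, and their values are described by counts. The median fold change of the 39 genes was 0.20 in BDL over FO, compared with 0.05 for all genes tested, and the 3 BDL libraries lay above the 3 FO libraries for 20 of the 39 genes (51.3%, compared with 24.4% of all genes) and below them for 0 (compared with 10.3%). With upper quartile scaling or quantile normalization this median was 0.13. In MZ over FO the median was also 0.20, compared with -0.01 for all genes, and it fell to 0.09 without MZ replicate 3 and to 0.10 without replicate 3 in every subset. Here the MZ libraries lay above the FO libraries for 16 genes (41.0%, compared with 23.6%) and below for 1 (compared with 22.5%). The BDL libraries lay above the MZ libraries for 3 genes (7.69%, compared with 22.6%) and below them for 10 (25.6%, compared with 16.4%). Within same-date pairs of BDL and MZ, 17 genes were higher in all 3 pairs (43.6%, compared with 41.6% of all genes) and 14 were lower (35.9%, compared with 30.2%), which is close to the background. Within same-date pairs, the median BDL over FO ratio of the 39 genes was 0.15, 0.11 and 0.34 for replicates 1 to 3, and the median MZ over FO ratio was 0.15, 0.05 and 0.36, so that the shift was largest in the third pair in both comparisons. With the replicate number as a block, which pairs libraries of one date, 11 genes were higher and 1 was lower in BDL than in FO B cells, where 1806 of all genes tested were higher and 572 lower.

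**Figure D1:**
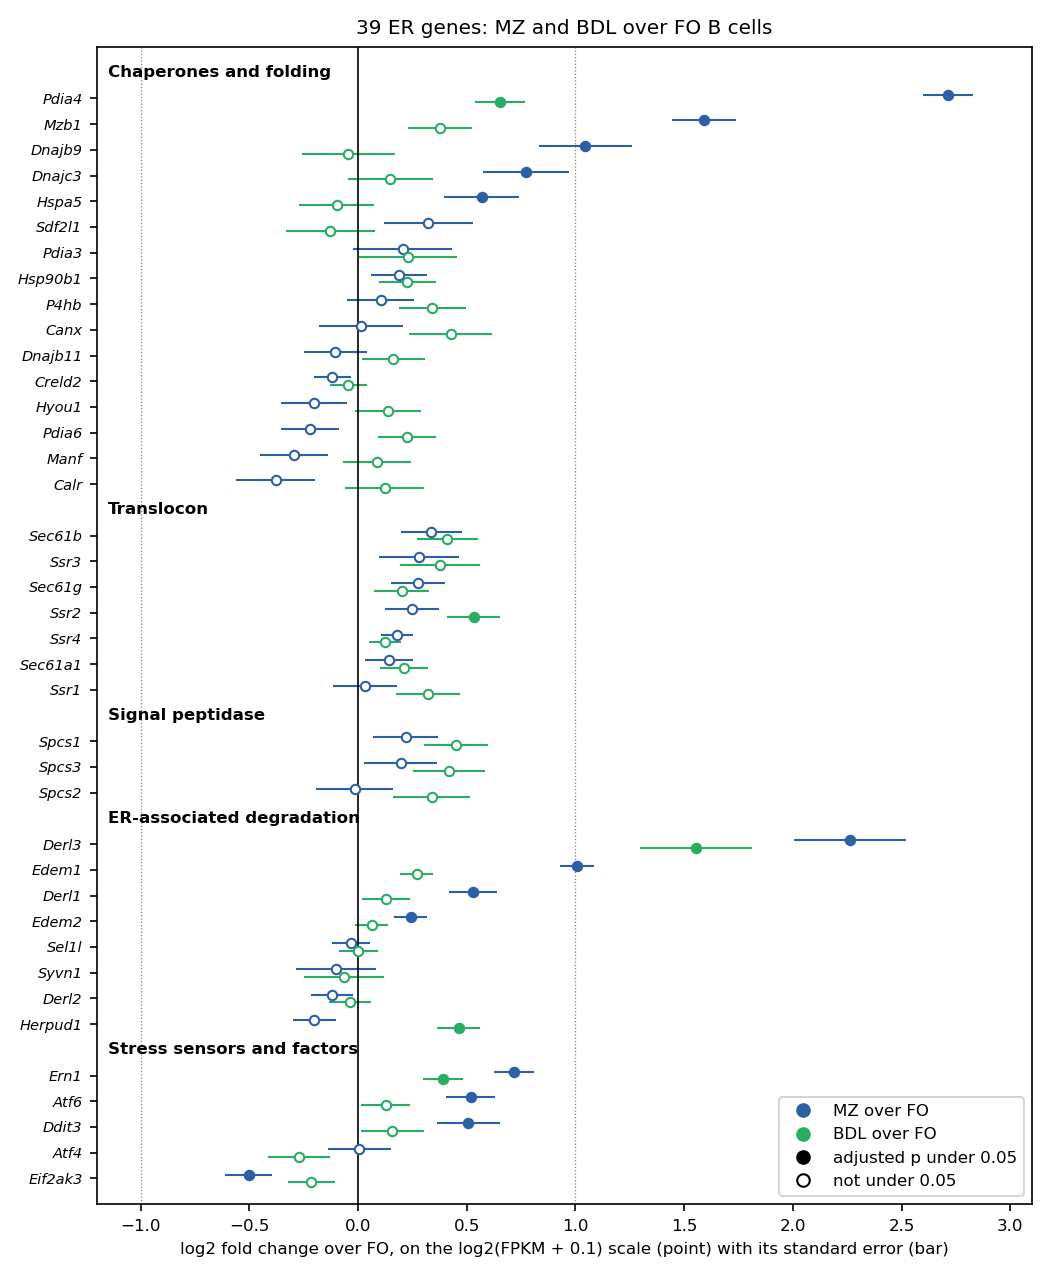
Log2 fold change of each of the 39 genes, grouped by role, in MZ over FO (blue) and BDL over FO (green) B cells, on the log2(FPKM + 0.1) scale; points are estimates, bars are standard errors and filled points passed the limma test at an adjusted p under 0.05. In MZ a few chaperone and degradation genes lie past 1 while most others lie near 0. The 7 translocon genes lie to the right of 0 in both comparisons, with only Ssr2 in BDL filled. The 3 signal peptidase genes do so in BDL, and in MZ all but Spcs2.

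Among the folding enzymes, Pdia4, a protein disulfide isomerase with several thioredoxin-like domains (chr6:47746141-47763511 on NCBIM37, minus strand), differed most between the subsets. Its level was 56.3, 46.4 and 52.7 FPKM in the FO libraries, 85.2, 70.7 and 88.8 FPKM in the BDL libraries and 349, 324 and 346 FPKM in the MZ libraries. The 3 subsets did not overlap, and BDL lay between FO and MZ. On the log2 scale the difference was 2.71 ± 0.115 (SE, n = 3 per subset) in MZ over FO (limma adjusted p = 1.81e-06), 0.65 ± 0.115 in BDL over FO (adjusted p = 0.0142) and -2.06 ± 0.115 in BDL over MZ (adjusted p = 1.02e-05). These correspond to a 6.56-fold higher level in MZ and a 1.57-fold higher level in BDL than in FO B cells. The differences involving MZ passed under every one of the 20 alternatives tried, while the call in BDL over FO was lost without FO replicate 2, FO replicate 3 or BDL replicate 1 and without replicate 3 in every subset, with an adjusted p of at most 0.07. The annotation places the microRNA gene Mir704 within an exon of Pdia4 on the same strand.

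The other protein disulfide isomerases did not follow Pdia4. Pdia3, which folds glycoproteins together with calreticulin and calnexin, was at 65.6 ± 2.48 FPKM (SD, n = 3) in FO, 79.3 ± 24.9 in BDL and 77.0 ± 18.3 in MZ. P4hb, the archetypal disulfide isomerase, was at 50.3 ± 1.56, 64.4 ± 11.8 and 54.5 ± 9.34 FPKM in the same order. Pdia6 was at 44.7, 41.4 and 44.1 FPKM in FO, 51.2, 45.2 and 56.3 FPKM in BDL and 35.4, 32.5 and 44.8 FPKM in MZ libraries. Every BDL library lay above every FO and MZ library, and Pdia6 passed the test in BDL over MZ (0.44 ± 0.133, limma adjusted p = 0.0386). That call was lost under 10 of the 20 alternatives, among them both other scalings, the 6 BDL and MZ libraries alone, and the fits without any 1 of the FO libraries, BDL replicate 1 or 3, or MZ replicate 1 or 2 (adjusted p up to 0.126). Pdia3 did not pass in any of the 3 comparisons. P4hb passed only in BDL over FO with the replicate block (adjusted p = 0.0475) and in BDL over MZ without replicate 3 in every subset (adjusted p = 0.03). The ratio of Pdia4 to Pdia6 within a library was 1.19 ± 0.0686 (SD, n = 3) in FO, 1.60 ± 0.0537 in BDL and 9.18 ± 1.27 in MZ B cells, and the 3 subsets did not overlap. The order of the disulfide isomerases thus differed between subsets, with Pdia3 highest in all 3 FO libraries and Pdia4 highest in all 3 MZ libraries.

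**Figure D2:**
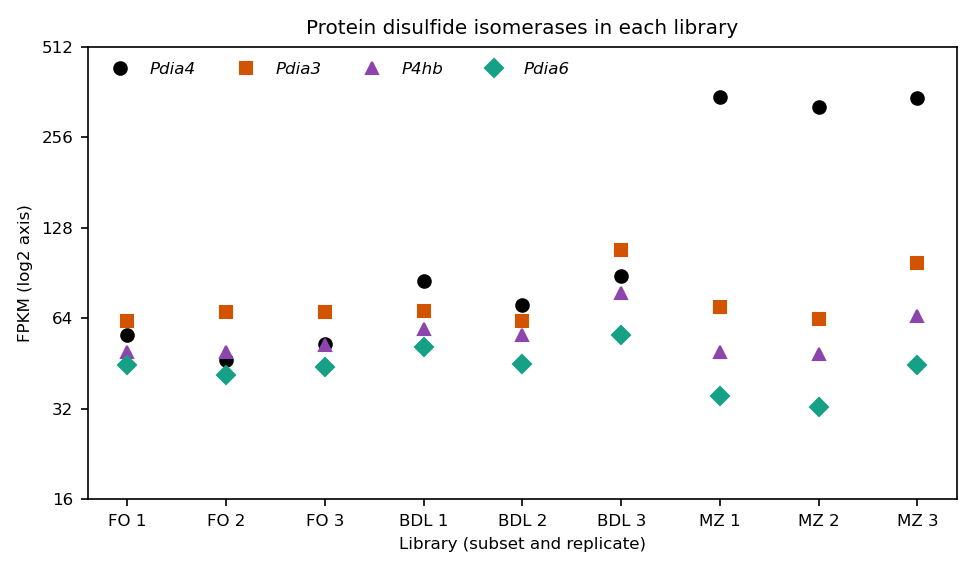
FPKM of 4 protein disulfide isomerases (log2 axis) in each of the 9 libraries, 1 symbol per gene, with replicates of a subset side by side. Pdia4 lies among the other 3 genes in FO, between 46.4 and 56.3 FPKM, and above all of them in MZ, between 324 and 349 FPKM.

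Mzb1, a B-lineage ER protein that assists immunoglobulin assembly and was named for its expression in MZ B cells, was the next most different chaperone. It was at 98.4, 106 and 98.8 FPKM in FO, 125, 117 and 156 FPKM in BDL and 298, 265 and 361 FPKM in MZ libraries. No FO library reached a BDL library, and no BDL library reached an MZ library. Mzb1 was higher in MZ over FO by 1.59 ± 0.147 (limma adjusted p = 1.03e-04) and differed by -1.21 ± 0.147 in BDL over MZ (adjusted p = 5.4e-04), and both held under all 20 alternatives. In BDL over FO it was 0.38 ± 0.147 (adjusted p = 0.158).

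Dnajb9, an ER co-chaperone of the J-domain family that is itself a target of the unfolded protein response, was at 28.8, 39.1 and 38.6 FPKM in FO, 28.9, 32.5 and 42.1 FPKM in BDL and 61.6, 65.1 and 95.7 FPKM in MZ libraries. The MZ libraries lay above all others, whereas FO and BDL overlapped. Its fold change was 1.05 ± 0.214 in MZ over FO (limma adjusted p = 0.00776) and -1.09 ± 0.214 in BDL over MZ (adjusted p = 0.00659). Both calls held under all 20 alternatives, though the MZ over FO estimate is close to a fold of 2 and MZ replicate 3 is the highest library.

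A smaller difference in the same direction was seen for Dnajc3, a co-chaperone that restrains the kinase encoded by Eif2ak3, and for Hspa5 (BiP), the main ER chaperone of the Hsp70 family and the gene with the highest mean level among the 39. Dnajc3 was at 9.15, 10.1 and 10.2 FPKM in FO, 9.54, 9.41 and 14.2 FPKM in BDL and 15.2, 14.4 and 21.5 FPKM in MZ libraries. The MZ libraries again lay above all others. Its fold change was 0.77 ± 0.196 in MZ over FO (limma adjusted p = 0.0204) and -0.63 ± 0.196 in BDL over MZ (adjusted p = 0.0457). Hspa5 was at 153, 206 and 177 FPKM in FO, 144, 163 and 193 FPKM in BDL and 225, 255 and 317 FPKM in MZ libraries, which corresponds to a fold change of 0.57 ± 0.173 in MZ over FO (adjusted p = 0.0418) and -0.67 ± 0.173 in BDL over MZ (adjusted p = 0.0222). The FO and BDL libraries overlapped for both genes. In MZ over FO, the call for Hspa5 was lost without FO replicate 1 or 3, BDL replicate 2, MZ replicate 2 or 3, or replicate 3 in every subset, with no minimum level and with the 6 compared libraries alone (adjusted p up to 0.144), and that for Dnajc3 without any 1 of the FO libraries or without MZ replicate 3 (adjusted p up to 0.0716). In BDL over MZ, Hspa5 was lost without BDL replicate 1 or 2 or MZ replicate 2 or 3 and with the 6 compared libraries alone (adjusted p up to 0.0746), and Dnajc3 in 11 alternatives that include leaving out any library except BDL replicate 3 (adjusted p up to 0.127).

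The remaining chaperones did not pass in MZ over FO. They comprise Hsp90b1 (GRP94), the calcium-binding lectins Calr and Canx, Sdf2l1, Dnajb11, Manf, Creld2 and Hyou1, beside Pdia3, Pdia6 and P4hb, with fold changes between -0.38 for Calr and 0.32 for Sdf2l1. Calr was at 168, 173 and 180 FPKM in FO, 172, 169 and 231 FPKM in BDL and 119, 115 and 173 FPKM in MZ libraries. Replicates 1 and 2 of MZ lay below all FO libraries, while MZ replicate 3 lay among them. Calr passed as lower in MZ over FO with the replicate block, without MZ replicate 3 and without replicate 3 in every subset (limma adjusted p down to 0.00327), but not in the fit of all 9 libraries without a block (adjusted p = 0.169). Manf, a secreted stress-response protein, was also lower in MZ with the block or without replicate 3 in every subset (adjusted p down to 0.0209, compared with 0.217 otherwise). Pdia6 and Dnajb11, a co-chaperone of BiP, were lower in MZ over FO without replicate 3 in every subset (adjusted p = 0.0463 for both). With the block, Calr, Canx, Manf and Hyou1 were higher in BDL than in MZ B cells, and they were among the 9 genes that were higher in that fit. Without replicate 3 in every subset, Calr, Canx, Manf, P4hb and Dnajb11 were higher in BDL over MZ, among 10 genes that passed. In BDL over FO, Pdia4 was the only chaperone that passed, and the fold changes of the 16 chaperones ranged from -0.13 to 0.65. With the block Canx (adjusted p = 0.0464), like P4hb, also passed in BDL over FO.

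**Figure D3:**
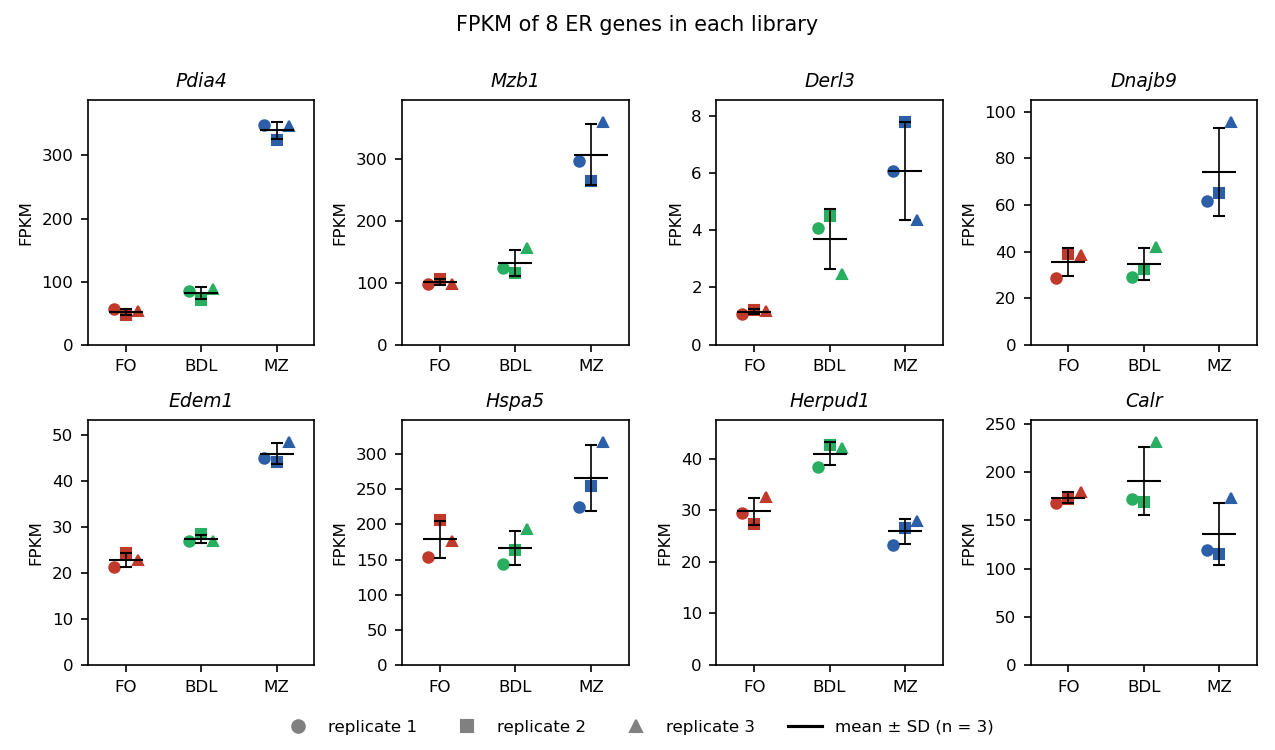
FPKM (linear axis from 0) of 8 ER genes in each library, by subset, with symbols for the replicate number and bars for the mean ± SD (n = 3). Pdia4, Mzb1, Dnajb9, Edem1 and Hspa5 are highest in the 3 MZ libraries, Herpud1 is highest in the 3 BDL libraries, and Derl3 is above FO in both BDL and MZ.

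The genes of protein entry into the ER all had fold changes above 0 in BDL over FO. So did 12 of the 16 chaperones and 56.6% of all genes tested. The 7 translocon genes are Sec61a1, Sec61b and Sec61g, which form the channel, and Ssr1 to Ssr4, which form the translocon-associated complex beside it. All 7 had higher levels in each BDL library than in any FO library, and so did the signal peptidase subunits Spcs1, Spcs2 and Spcs3. The same held for 6 of the 16 chaperones and for 24.4% of all genes tested. The fold changes were modest, from 0.12 for Ssr4 to 0.53 for Ssr2, and stayed above 0 for these 10 genes under upper quartile scaling and quantile normalization. Ssr2 was at 24.6, 24.5 and 25.0 FPKM in FO, 33.6, 33.2 and 41.1 FPKM in BDL and 27.3, 26.9 and 34.4 FPKM in MZ libraries. BDL replicates 1 and 2 lay close together and BDL replicate 3 was higher. Ssr2 was the only one of the 10 that passed in BDL over FO (0.53 ± 0.122, limma adjusted p = 0.036), and its call was lost without any 1 of the 6 FO and BDL libraries or without MZ replicate 1 (adjusted p up to 0.123). With the block, Sec61b (adjusted p = 0.036), Spcs1 (adjusted p = 0.0295) and Spcs3 (adjusted p = 0.0258) passed as well.

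In MZ over FO none of these 10 genes passed in the fit as described above. Fold changes were between -0.01 for Spcs2 and 0.34 for Sec61b, and all 7 translocon genes were above 0 here too. With the block Ssr4 (adjusted p = 0.0474) and Sec61b passed there. With quantile normalization Sec61b (adjusted p = 0.0273), Sec61g (adjusted p = 0.0319) and Ssr2 (adjusted p = 0.0366) passed, and Sec61b did so without BDL replicate 3 as well. In BDL over MZ, 5 of the 7 translocon genes had fold changes above 0, and only 2 with upper quartile scaling or quantile normalization. The 3 signal peptidase genes were above 0 in each of these fits. In BDL over MZ none of the 10 passed, whereas Ssr2 and Spcs2 were higher with the block (lowest adjusted p over the alternatives 0.0115 and 0.0262). Without replicate 3 in every subset Ssr2, Spcs2 and Spcs3 were higher there, and Ssr2 also without MZ replicate 3. The summed FPKM of the 7 translocon genes was 228 ± 3.85 (SD, n = 3) in FO, 283 ± 29.6 in BDL and 271 ± 31.6 in MZ B cells. That of the signal peptidase genes was 59.1 ± 2.94, 79.2 ± 14.4 and 65.9 ± 12.2 FPKM. For both sums replicate 3 was the highest library of BDL and of MZ, while the FO libraries differed little.

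**Figure D4:**
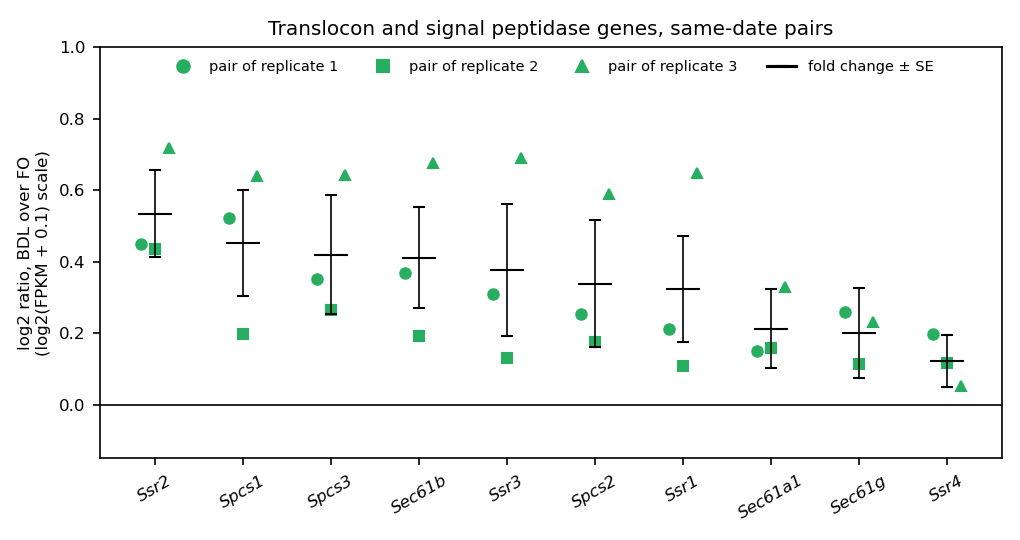
Log2 ratio of BDL to FO, on the log2(FPKM + 0.1) scale, for the translocon and signal peptidase genes in each same-date pair of libraries (symbols), with the estimated fold change and its SE (bars). All ratios lie above 0, and the third pair is the highest for most genes but the lowest for Ssr4. Of all genes tested, 35.6% were higher in BDL in all 3 pairs.

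In ER-associated degradation, Derl3 had the largest fold change of the 39 genes in BDL over FO B cells. It encodes a derlin, a membrane protein of the channel complex that exports misfolded proteins (chr10:75356143-75358686 on NCBIM37, plus strand). Its level was 1.06, 1.22 and 1.17 FPKM in FO, 4.09, 4.48 and 2.48 FPKM in BDL and 6.07, 7.78 and 4.36 FPKM in MZ libraries. The FO libraries lay well below the others, and replicate 3 was the lowest library of both BDL and MZ, unlike most of the 39 genes. Derl3 was higher by 1.55 ± 0.257 in BDL over FO (limma adjusted p = 0.0107) and by 2.26 ± 0.257 in MZ over FO (adjusted p = 3.32e-04). The call in BDL over FO was lost without FO replicate 1 only (adjusted p = 0.0506), and that in MZ over FO held under all 20 alternatives. BDL and MZ overlapped by BDL replicate 2 and MZ replicate 3, and the difference between them did not pass (-0.71 ± 0.257, adjusted p = 0.0738), although it did with the block, without MZ replicate 3 and without replicate 3 in every subset (lowest adjusted p = 0.0207). Derl1 and Derl2, the other derlins, were higher in level and differed less. Derl1 was higher in MZ than in FO (0.53 ± 0.11, adjusted p = 0.00811) and lower in BDL than in MZ B cells (-0.40 ± 0.11, adjusted p = 0.0277), the second of which was lost without BDL replicate 1 or 2, MZ replicate 2 or 3, or replicate 3 in every subset, and with the 6 compared libraries alone (adjusted p up to 0.0898). Derl2 lay between 5.18 and 6.64 FPKM in all 9 libraries and did not pass in any comparison.

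Edem1, a lectin that directs misfolded glycoproteins to degradation, was at 21.2, 24.2 and 22.7 FPKM in FO, 27, 28.3 and 26.8 FPKM in BDL and 44.9, 44.1 and 48.4 FPKM in MZ libraries. The 3 subsets did not overlap and the replicates of each lay close together. The difference was 1.01 ± 0.0775 in MZ over FO (limma adjusted p = 3.91e-05) and -0.74 ± 0.0775 in BDL over MZ (adjusted p = 2.4e-04), and both held under all 20 alternatives. In BDL over FO it was 0.27 ± 0.0775 (adjusted p = 0.0754), which passed with the block (adjusted p = 0.0398). Its relative Edem2 was higher in MZ over FO by 0.24 ± 0.0768 (adjusted p = 0.0486), a call that was lost under 11 alternatives, among them leaving out any library except BDL replicate 3 (adjusted p up to 0.165).

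Herpud1, which helps assemble the degradation complex at the ER membrane, was the only one of the 39 genes that passed as higher in BDL over both FO and MZ with all libraries and no block. Canx and Ssr2 also did so with the block, and Ssr2 did so without MZ replicate 3 and without replicate 3 in every subset. It was at 29.4, 27.4 and 32.5 FPKM in FO, 38.5, 42.6 and 42.0 FPKM in BDL and 23.3, 26.5 and 28.0 FPKM in MZ libraries. The BDL libraries lay above all others, whereas FO and MZ overlapped. Herpud1 was higher by 0.46 ± 0.0996 in BDL over FO (limma adjusted p = 0.0291) and by 0.66 ± 0.0996 in BDL over MZ (adjusted p = 0.00176). The second held under all 20 alternatives, and the first was lost without any 1 of the 6 FO and BDL libraries (adjusted p up to 0.111). Syvn1, the ubiquitin ligase of the complex, and its partner Sel1l did not pass in any comparison, with Sel1l between 12.7 and 15.1 FPKM in all libraries. Syvn1 varied within BDL from 50.2 to 81.6 FPKM, and its exons overlap those of Mrpl49 on the opposite strand.

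Of the stress sensors, Ern1 (IRE1), the kinase and endonuclease that splices Xbp1 mRNA, was at 1.58, 1.49 and 1.48 FPKM in FO, 2.09, 2.08 and 1.89 FPKM in BDL and 2.70, 2.55 and 2.42 FPKM in MZ libraries. The subsets did not overlap, with BDL between FO and MZ. The fold change was 0.72 ± 0.0927 in MZ over FO (limma adjusted p = 7.03e-04), which held under all 20 alternatives, 0.39 ± 0.0927 in BDL over FO (adjusted p = 0.0402) and -0.32 ± 0.0927 in BDL over MZ (adjusted p = 0.0325). The call in BDL over FO was lost under 12 alternatives, including the fits without any library except BDL or MZ replicate 3 (adjusted p up to 0.145). That in BDL over MZ was lost under 10, including the fits without any library except FO replicate 2 or MZ replicate 3 (adjusted p up to 0.122). Atf6, a membrane-bound transcription factor released by stress, was higher in MZ over FO (0.52 ± 0.112, adjusted p = 0.00999) and lower in BDL over MZ (-0.39 ± 0.112, adjusted p = 0.0327), the second of which was lost with the 6 compared libraries alone and in the fits that left out 1 library, except BDL replicate 3 or MZ replicate 2 (adjusted p up to 0.095).

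Eif2ak3 (PERK), the kinase that slows translation, was the 1 gene of the 39 that passed as lower in MZ over FO with all libraries and the deposited scaling and no block, beside the genes named above that did so without replicate 3. Its level was 36.6, 41.7 and 38.3 FPKM in FO, 31.6, 37.0 and 32.2 FPKM in BDL and 24.9, 30.9 and 26.7 FPKM in MZ libraries. Every MZ library lay below every FO and BDL library, whereas BDL and FO overlapped by BDL replicate 2 and FO replicate 1. The fold change was -0.50 ± 0.108 in MZ over FO (limma adjusted p = 0.00965), a call that was lost only without replicate 3 in every subset (adjusted p = 0.0602), and -0.21 ± 0.108 in BDL over FO (adjusted p = 0.267), which passed with the block (adjusted p = 0.0394). Its downstream factors behaved differently. Atf4 did not pass in any comparison, with means of 191 ± 20.9 FPKM (SD, n = 3) in FO, 158 ± 15.7 in BDL and 192 ± 29.2 in MZ. Ddit3 (CHOP) was higher in MZ over FO (0.51 ± 0.146, adjusted p = 0.0337), a call lost without FO replicate 1 or 3, BDL replicate 1, MZ replicate 2 or 3, or replicate 3 in every subset (adjusted p up to 0.121). Exons of Ddit3 overlap those of Mars on the opposite strand, so reads of both cannot be told apart where strand was not used.

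**Figure D5:**
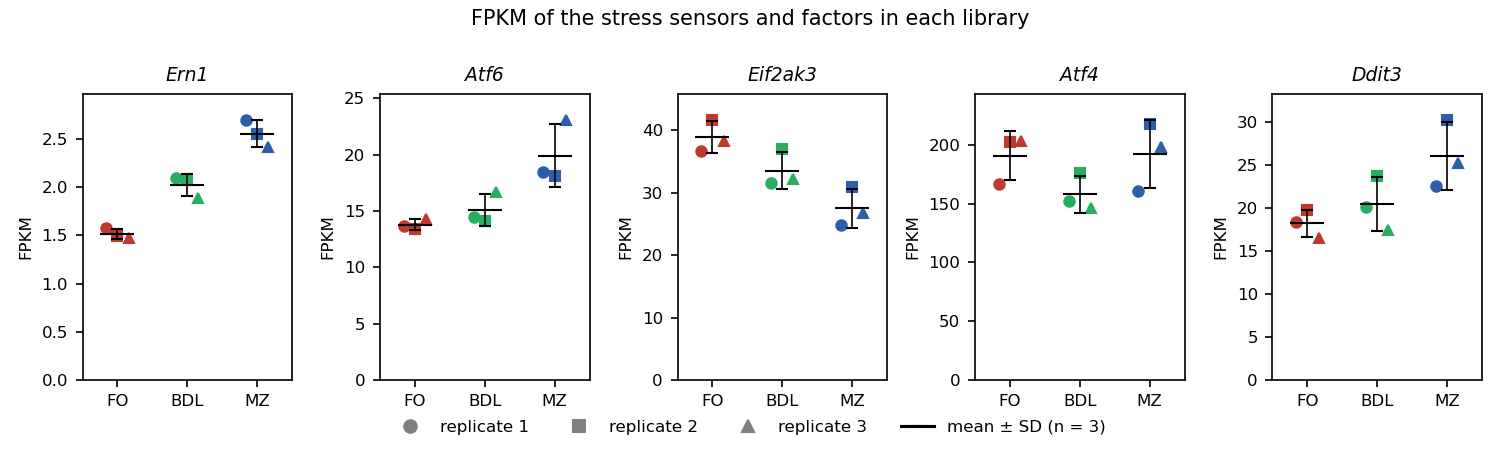
FPKM (linear axis from 0) of the 5 stress sensors and transcription factors in each library, with symbols for the replicate number and bars for the mean ± SD (n = 3). Ern1 and Atf6 are highest in the 3 MZ libraries, Eif2ak3 is lowest in them, and Atf4 overlaps between all subsets.

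Promoters were read for the genes above because ER chaperone genes are known to share the ER stress response element, ERSE, which was searched as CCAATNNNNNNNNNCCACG on both strands. RefSeq windows from 250 bases before to 50 bases after the annotated start (GRCm38.p6) were found for 31 of the 39 genes. The ERSE letters occurred in 9 of the 31, compared with 39 of 32851 windows of all genes (0.119%). The matches are shown on the strand that reads CCAAT first, with the defining letters in capitals, to show how the bases between them differ.
Hspa5: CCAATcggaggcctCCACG
Calr: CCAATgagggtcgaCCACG
Derl3: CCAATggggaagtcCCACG
Hsp90b1, first: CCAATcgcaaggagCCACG
Hsp90b1, second: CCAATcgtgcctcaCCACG
Canx: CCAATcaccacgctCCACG
Pdia6: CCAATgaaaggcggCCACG
Dnajc3: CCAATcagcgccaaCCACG
Creld2: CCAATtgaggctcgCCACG
Syvn1: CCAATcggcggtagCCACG

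Of these 9 genes, Hspa5, Dnajc3 and Derl3 were higher in MZ over FO B cells and 6 did not pass, with a median fold change of 0.01. Of the 22 genes whose window lacks the letters, 6 were higher and 1 was lower, with a median of 0.21. In BDL over FO, 1 of the 9 (Derl3) and 3 of the 22 were higher. The windows of Derl3 and Pdia4, which had the largest fold changes among the 39, and of Hspa5 are shown because they differ in these letters. The letters are in capitals and read on the opposite strand in Derl3 (CGTGG first), where the match begins 156 bases before the start. In Hspa5 the match begins 65 bases before the start, and the capitals further upstream mark TGACGTG, the core of the unfolded protein response element, which was found in 1 of the 31 genes and in 2.01% of all windows. Neither set of letters occurs in the Pdia4 window. A match is a description of the sequence, and binding was not measured.
Hspa5, chr2:34771840-34772139, plus strand: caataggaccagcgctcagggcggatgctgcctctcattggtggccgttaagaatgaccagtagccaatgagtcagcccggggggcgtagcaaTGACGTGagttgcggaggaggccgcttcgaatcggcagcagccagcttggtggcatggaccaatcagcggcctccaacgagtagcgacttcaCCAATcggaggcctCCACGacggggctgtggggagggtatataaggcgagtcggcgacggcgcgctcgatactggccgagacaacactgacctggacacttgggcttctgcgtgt
Derl3, chr10:75893148-75893447, plus strand: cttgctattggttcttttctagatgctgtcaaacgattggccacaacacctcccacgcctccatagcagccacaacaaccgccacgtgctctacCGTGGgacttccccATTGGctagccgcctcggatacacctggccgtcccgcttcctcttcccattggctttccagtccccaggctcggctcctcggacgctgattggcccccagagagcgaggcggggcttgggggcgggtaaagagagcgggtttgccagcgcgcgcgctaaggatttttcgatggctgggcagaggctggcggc
Pdia4, chr6:47813463-47813762, minus strand: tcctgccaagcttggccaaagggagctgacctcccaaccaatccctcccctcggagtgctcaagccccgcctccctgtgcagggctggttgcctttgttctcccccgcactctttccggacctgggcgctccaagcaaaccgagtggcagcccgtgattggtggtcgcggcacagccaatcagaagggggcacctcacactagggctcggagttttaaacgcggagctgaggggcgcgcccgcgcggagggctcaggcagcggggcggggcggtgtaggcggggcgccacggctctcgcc

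The levels of the 39 genes were also summed in each library. The sum was 1619, 1738 and 1742 FPKM in FO, 1797, 1782 and 2134 FPKM in BDL and 2228, 2243 and 2727 FPKM in MZ libraries. FO lay below BDL and BDL below MZ without overlap. As a share of all FPKM in a library, the sum was 0.376% ± 0.0150 (SD, n = 3) in FO, 0.404% ± 0.0378 in BDL and 0.490% ± 0.0329 in MZ, and here FO and BDL overlapped, since FO replicate 2 (0.390%) lay above BDL replicates 1 and 2 (0.382% each). Pdia4, Mzb1 and Hspa5 had the highest means of the 39 in MZ and passed as higher there than in FO. Leaving them out therefore takes most from the MZ sum. Without them the sum of the other 36 was 1368 ± 52.3 FPKM (SD, n = 3) in FO, 1523 ± 150 in BDL and 1486 ± 189 in MZ. For these 36, MZ replicates 1 and 2 fell within the range of FO.

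Other genes of the pathway were read from lists of 102 genes in 7 groups, of which 93 were tested. In MZ over FO, 11 were higher (11.8%, compared with 14.3% of all genes tested) and 5 lower (5.38%, compared with 12.8%). In BDL over FO, 8 were higher (8.60%, compared with 6.04%) and 1 was lower (1.08%, compared with 1.68%). In BDL over MZ, 15 were higher (16.1%, compared with 16.5%) and 5 lower (5.38%, compared with 11.6%). The shares of genes that passed as higher were thus close to those of all genes. In BDL over FO, the BDL libraries lay above the FO libraries for 35 of the 93 and below them for 3 (compared with 24.4% and 10.3% of all genes). The median fold change there was 0.14, compared with 0.05 for all genes tested. In MZ over FO, the MZ libraries lay above for 19 and below for 13 (compared with 23.6% and 22.5%). Targets of Atf4 and Ddit3 held most of the large differences. Atf3, a stress-induced transcription factor, was between 8.80 and 17.7 FPKM in FO, 9.70 and 26.1 in BDL and 124 and 309 in MZ libraries (4.11 ± 0.458 in MZ over FO, limma adjusted p = 2.98e-04, and -3.70 ± 0.458 in BDL over MZ, adjusted p = 6.16e-04). Asns, which makes asparagine, was higher over FO in both MZ (1.85 ± 0.209, adjusted p = 3.3e-04) and BDL (1.29 ± 0.209, adjusted p = 0.00982). The BDL call was lost without replicate 3 in every subset (adjusted p = 0.0704). Psat1, an enzyme of serine synthesis, was higher in BDL over FO (1.30 ± 0.102, adjusted p = 3.92e-04) and over MZ (1.15 ± 0.102, adjusted p = 9.78e-05). Sesn2, which limits growth signalling under stress, was higher in MZ over FO (1.05 ± 0.189, adjusted p = 0.00399) and lower in BDL over MZ (-1.43 ± 0.189, adjusted p = 8.77e-04). Ppp1r15a (GADD34), which reverses the translation block set by the kinase PERK, was between 248 and 320 FPKM in FO, 139 and 164 in BDL and 331 and 486 in MZ libraries. It was lower in BDL over MZ (-1.37 ± 0.163, adjusted p = 4.94e-04). It was also the 1 pathway gene lower in BDL over FO (-0.85 ± 0.163, adjusted p = 0.0199), a call lost under 5 alternatives. In MZ over FO it was higher (0.52 ± 0.163, adjusted p = 0.048), a call lost under 9 (adjusted p up to 0.177).

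Among the folding enzymes outside the 39, the disulfide isomerase family member Txndc5 ran opposite to Pdia4. It was at 64, 53.6 and 63.3 FPKM in FO, 73.2, 60.5 and 59.6 FPKM in BDL and 25.7, 23.6 and 25.0 FPKM in MZ libraries. The MZ libraries lay below all others (-1.28 ± 0.11 in MZ over FO, limma adjusted p = 7.11e-05, and 1.37 ± 0.11 in BDL over MZ, adjusted p = 5.97e-05). Sec24d, a coat subunit of the vesicles that leave the ER, was higher in BDL over MZ (1.03 ± 0.172, adjusted p = 0.00305) at levels of 0.469 to 1.32 FPKM. Of 12 oligosaccharyltransferase genes, 0 passed in BDL over FO and 1 in MZ over FO (Krtcap2, lower), and of 14 further degradation genes 0 passed in any comparison. Xbp1, the transcription factor activated by Ern1, was between 14.3 and 22.6 FPKM in all libraries and did not pass. In BDL over MZ (-0.31 ± 0.114, adjusted p = 0.078) it was lower with the block, with upper quartile scaling, with quantile normalization and without MZ replicate 2 (adjusted p down to 0.0161). Its splicing cannot be read from gene-level FPKM.

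Markers of other cells that the sorts could hold were read beside these results. Of the plasma cell markers, Tnfrsf17 was listed at 0 in all FO and BDL libraries and was at most 0.0727 FPKM in MZ. Sdc1 (CD138) was between 6.86 and 9.58 FPKM in BDL, 1.22 and 1.67 in FO and 0.114 and 0.289 in MZ libraries, while Prdm1 (Blimp-1) was highest in MZ, between 3.50 and 5.41 FPKM, and at most 1.18 FPKM elsewhere. Igj was highest in replicate 2 of every subset, up to 2.87 FPKM. The summed level of the 12 plasma cell markers ranged from 309 to 324 FPKM in FO, 250 to 319 in BDL and 315 to 379 in MZ libraries, so that FO and MZ overlapped. The largest part of this sum was Irf4, with means of 179 FPKM in FO, 137 in BDL and 230 in MZ. The sum is thus set largely by Irf4 rather than by the list as a whole. Of the 10 that were tested, 1 was higher in BDL over FO, and 2 were higher and 3 lower in MZ over FO. Their part in the differences of the ER genes was not tested. Summed markers of T cells were 10.5 to 12.3 FPKM in FO, 19.8 to 24.9 in BDL and 8.30 to 14.5 in MZ libraries, and most of that was Lck. Summed markers of myeloid, NK and erythroid cells were each at most 12.7 FPKM in every library, but single markers differed between subsets. Emr1, Itgam and Hbb-b1 were higher in BDL over FO (3.98-fold, 1.85-fold and 3.83-fold, limma adjusted p = 8.22e-04, 0.0208 and 0.00542). Itgam and Prf1 were higher in MZ over FO (2.14-fold and 4.72-fold, adjusted p = 0.00198 and 6.06e-04). The other NK markers tested, Gzma and Nkg7, had log2 fold changes of -0.33 and -0.57 in MZ over FO and passed in no comparison. Nor did the myeloid markers Lyz2, S100a8 and S100a9. The remaining myeloid and NK markers with a row averaged under 0.5 FPKM and were not tested. The erythroid sums were 1.98 to 4.31 FPKM in FO and 7.05 to 8.10 FPKM in BDL libraries, without overlap. The part of these markers in the differences of the ER genes was not tested either.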

How the data were processed

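RNA-seq was analysed for 9 libraries of sorted mouse splenic B cells, 3 each of FO, BDL and MZ. The authors aligned reads to mm9 with TopHat2 2.1.0 and deposited FPKM per gene and library, computed with Cufflinks, whose version and gene annotation are not given in the sources used here. The authors' Cuffdiff columns (fold changes and p-values) were not used. No further scaling was applied.

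FPKM were analysed as log2(FPKM + 0.1), which understates changes of low genes. Rows averaging 0.5 FPKM or more (11597) were fitted in R 4.3.3 with limma 3.58.1 (eBayes with trend) over all 9 libraries, with subset as the sole term and Benjamini-Hochberg adjustment across the rows tested. The fit was tested on simulated data. An exact permutation test of 3 libraries against 3 cannot go below p = 0.1 and was not used. For the depth estimate, genes with 1 transcript of at least 3000 nt were used, and 71.8% to 80.2% of their values in a library fell no more than 0.1 from a whole fragment number, compared with 20% by chance. Positions came from GENCODE on NCBIM37 (1 annotated gene for 38 of the 39 symbols), and promoters from RefSeq on GRCm38.p6. Exons of 9 of the 39 genes overlap another gene.

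Same-numbered libraries share a date in their labels, which pairs them. The correlation across genes of their deviations from the subset means was 0.147, -0.0623 and 0.0491 between BDL and FO, 0.0238, 0.0077 and 0.0138 between MZ and FO, and 0.1, 0.182 and 0.244 between BDL and MZ for replicates 1 to 3. The date is no term in the study's own methods and was therefore an alternative block.

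The 39 genes and all lists were chosen with earlier results of these data known. Values in every library are given for genes that passed with a fold of 2 or more and for the 8 with the largest fold change among those that passed. Calr and Eif2ak3, outside that rule, were given in full after their values were seen. Pathway genes are named where they passed with a fold of 2 or more, and Krtcap2 and Xbp1 were added. The alternatives were the addition of 0.01 or 1, no minimum or one of 1 FPKM, a fit of only the 6 libraries compared, the date block, quantile normalization, upper quartile scaling, eBayes with no trend, summing of rows that share a symbol, and leaving out each library. Leaving out replicate 3 in every subset was added after seeing the data. Figures were drawn with matplotlib 3.10.9.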

Additional observations from a re-analysis of the deposited data

How the results depend on the processing

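Of the genes that passed, 8 of 13 in MZ over FO, 5 of 11 in BDL over MZ and 0 of 5 in BDL over FO passed under all 20 alternatives, and no gene that passed changed direction. Paired by date with a replicate block, the genes tested that were higher and lower numbered 1806 and 572 in BDL over FO. With that block 3043 genes were higher in BDL over MZ and 2215 were lower in MZ over FO. The block gave 11 ER genes higher and 1 lower in BDL over FO, 3 lower in MZ over FO and 9 higher in BDL over MZ. With the 6 compared libraries alone, 115 genes were lower in BDL over FO and 1246 higher in BDL over MZ, where 1 ER gene was higher and 4 were lower. Upper quartile scaling and quantile normalization gave 371 and 351 genes lower in BDL over FO, and 1 ER gene each higher in BDL over MZ. The share of higher genes among those called went from 78.2% to 61.9% and 64.1% in BDL over FO, and from 58.6% to 44.0% with upper quartile scaling in BDL over MZ. The median fold change of the 39 genes in BDL over MZ went from 0.04 to -0.07 and -0.06. Without replicate 3 in every subset, 3 ER genes were higher in BDL over FO and 10 in BDL over MZ, 4 were lower in MZ over FO, and 3 were higher there with a fold of 2 or more. Of all genes tested, 5.68% were higher in BDL over FO and 22.4% in BDL over MZ in that fit, and 1952 of 11634 were lower in MZ over FO.

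With 1 library left out, genes higher in BDL over FO ranged from 279 to 881 and genes lower from 45 to 228, both lowest without FO replicate 3. ER genes higher in BDL over FO ranged from 1 to 5: 1 without any FO library or BDL replicate 1, 2 without BDL replicate 2, and 3 without BDL replicate 3 or MZ replicate 1. Those with a fold of 2 or more ranged from 0 to 1. In MZ over FO, genes lower ranged from 905 to 1933, ER genes lower from 1 to 2 and ER genes higher with a fold of 2 or more from 3 to 5, lowest without FO replicate 1 or MZ replicate 3. In BDL over MZ, genes higher ranged from 1172 to 2370, ER genes higher from 1 to 7 (7 without MZ replicate 3) and ER genes lower from 4 to 8. Why these counts moved was not tested.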
